A study of Mus musculus with 15 samples.

Results

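Heat shock proteins keep other proteins folded, and cochaperones steer them to their clients. The 8 mouse genes described here are Hspa1a, Hspa1b, Hsph1, Dnajb1, Hspb1, Cryab, Hspa8 and Hspa5. They were taken as all probe sets annotated to these symbols, which gave 20 of the 45037 probe sets on the array other than controls, and 8 of its 18193 named genes. The expression of each was measured as a scaled probe-set intensity on Affymetrix mouse genome arrays, 1 array per sample, in 15 samples. Brain arrays carried RNA of cells labelled SMC/pericyte, which were isolated from brain by fluorescence-activated sorting, and aorta arrays carried RNA of aorta explants. The labels do not say how the sorted cells were marked.

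The groups were brain cells of Notch3 -/- mice (5 arrays, named A, B, C, D and F) and of Notch3 +/- mice (4 arrays, E, G, I and H), and aorta of Notch3 -/- mice (3 arrays, 5558, 5559 and 6167) and of Notch3 +/- mice (3 arrays, 5556, 5561 and 6166). All mice were C57BL6J males aged 10 to 12 weeks. No group was wild type for Notch3, because the +/- mice carry 1 disrupted copy. The labels do not say how the allele was disrupted. Each brain array stands for 1 mouse, per the series' design text. Whether each aorta array is a different mouse is not stated, and the p-values for aorta therefore measure the spread between arrays, which may be technical.

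Notch3, which encodes a receptor of vascular smooth muscle cells and pericytes and is the targeted gene, checked the labels. At probe set 1421965_s_at it read 150 to 249 on the Notch3 -/- brain arrays, against 2326 to 2805 on the +/- brain arrays. It read 80.1 to 146 on the -/- aorta arrays, against 362 to 453 on the +/- aorta arrays. Markers showed that the brain samples also held RNA of other cells. The 6 measured oligodendrocyte markers summed to 30601 to 43895 in -/- brain cells and 26800 to 38371 in +/- brain cells, against 344 to 798 over both aorta groups. The 7 endothelial markers summed to 20729 to 23966 in -/- and 16222 to 27799 in +/- brain cells, against 2915 to 3673 over both aorta groups. The 6 fibroblast markers ran the other way, at 1087 to 4662 over both brain groups and 26273 to 28765 over both aorta groups. The arrays also carry control probe sets at the 3′ and 5′ end of actin, and their ratio grows as fewer transcripts are copied in full. This ratio was 49.7 to 63.7 in -/- and 28.5 to 70.1 in +/- brain cells, against 3.09 to 3.40 in -/- and 3.35 to 3.95 in +/- aorta. In bulk samples like these, fewer cells of a type and less RNA per cell cannot be told apart.

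As background, the cytosolic HSP70 proteins bind and release unfolded stretches of protein in a cycle driven by ATP. Hspa1a and Hspa1b encode the inducible HSP70, and Hspa8 its constitutive relative, which cells make without stress. Dnajb1 is a J-domain cochaperone that starts the cycle, and Hsph1 is an HSP110 that exchanges the spent nucleotide. Hspb1 and Cryab are small heat shock proteins, which hold unfolded proteins without ATP and are abundant in muscle. Hspa5, also called BiP, is the HSP70 of the endoplasmic reticulum and is induced by the unfolded protein response. Heat shock factor 1 switches on the inducible genes through heat shock elements, repeats of GAA and TTC units in their promoters.

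The promoters of 4 of these genes are shown. Those of Hspa1b and Hspa1a show how alike the HSP70 copies are, and those of Hsph1 and Hspa5 are the ones that hold the longer elements searched. The sequences are RefSeq's of the GRCm38.p6 build, from 250 bases before to 50 after the annotated start, read 5′ to 3′ on the gene's own strand. Of the 8 genes, 6 were in that table, and Cryab and Hspa8 are named only. Capitals mark heat shock units (GAANNTTC or TTCNNGAA, where N is any base, or such a match extended by a further unit) and, in Hspa5, the endoplasmic reticulum stress element (CCAAT and CCACG with 9 bases between). All motifs were searched on both strands.
Hspa1b, chr17:34959189-34959488, minus strand: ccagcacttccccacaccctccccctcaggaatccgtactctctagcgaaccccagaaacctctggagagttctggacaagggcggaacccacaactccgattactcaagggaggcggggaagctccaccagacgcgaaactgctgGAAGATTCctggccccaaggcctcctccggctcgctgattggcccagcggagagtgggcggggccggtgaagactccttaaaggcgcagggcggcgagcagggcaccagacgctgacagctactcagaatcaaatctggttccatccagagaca
Hspa1a, chr17:34972107-34972406, minus strand: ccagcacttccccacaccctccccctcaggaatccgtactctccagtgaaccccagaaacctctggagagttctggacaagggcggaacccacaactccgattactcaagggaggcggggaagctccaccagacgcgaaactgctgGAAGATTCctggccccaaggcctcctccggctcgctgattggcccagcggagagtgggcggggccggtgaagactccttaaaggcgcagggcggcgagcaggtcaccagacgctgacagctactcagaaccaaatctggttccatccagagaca
Hsph1, chr5:149636287-149636586, minus strand: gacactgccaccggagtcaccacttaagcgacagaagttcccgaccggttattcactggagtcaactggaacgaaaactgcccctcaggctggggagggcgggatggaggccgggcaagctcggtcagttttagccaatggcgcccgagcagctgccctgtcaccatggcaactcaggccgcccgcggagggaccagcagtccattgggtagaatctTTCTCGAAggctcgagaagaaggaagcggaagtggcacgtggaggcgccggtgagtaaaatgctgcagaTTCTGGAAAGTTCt
Hspa5, chr2:34771840-34772139, plus strand: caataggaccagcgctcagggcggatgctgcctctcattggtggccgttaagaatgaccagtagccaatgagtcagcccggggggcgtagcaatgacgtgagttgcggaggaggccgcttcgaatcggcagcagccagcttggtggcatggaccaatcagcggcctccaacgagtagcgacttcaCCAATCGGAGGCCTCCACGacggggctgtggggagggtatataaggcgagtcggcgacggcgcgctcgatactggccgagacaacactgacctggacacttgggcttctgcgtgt

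The Hspa1b and Hspa1a windows were identical at 296 of 300 positions (98.67%). The 4 differences, with the Hspa1b base first and positions counted from the 5′ end of the window, were T44C, C47T, G249T and T276C. Each window holds the 2-unit match GAAGATTC with its first base 104 bases before the start. The Hsph1 window holds TTCTCGAA starting 33 bases before the start, and the 3-unit match TTCTGGAAAGTTC, whose first base is base 37 of the transcript. A second annotated Hsph1 window, shifted by its start, holds the same matches. The Hspb1 window (chr5:135887669-135887968, plus strand) holds 2 matches, GAAGTTTC and GAACCTTC, and neither of the 2 Dnajb1 windows holds any. The 19-base match in Hspa5 begins 65 bases before the start. For comparison, 15.1% of 32851 RefSeq mouse promoter windows of the same length hold a 2-unit match, 0.603% a 3-unit match and 0.119% the endoplasmic reticulum stress element. A match is a string of letters and says nothing of binding, and the arrays did not measure these windows.

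Brain cells and aorta were first compared within each genotype, with no array shared between the 2 comparisons. The inducible HSP70 transcripts, and Dnajb1 at the brighter of its 2 probe sets, were several times higher in brain cells. Hspb1 and the dimmer Dnajb1 set were higher by smaller folds, and Hsph1 was lower. Cryab, Hspa8 and Hspa5 each had probe sets that pointed opposite ways. In Notch3 -/- mice, 12 of the 19 probe sets tested were higher in brain cells and 7 were lower at an adjusted p under 0.05 (limma, Benjamini-Hochberg over 22519 probe sets). Among all probe sets tested, 33.6% were higher and 28.9% lower, 62.5% together. In Notch3 +/- mice, 11 of 19 were higher and 5 lower, against 26.5% and 25.2% of all probe sets, 51.8% together. Of the 19, 16 (84.2%) were called in the same direction in both genotypes, and 48.1% of all 21604 probe sets tested in both were. The tissue comparison carries the differences in cell makeup, extraction and 3′ to 5′ ratio given above, and their part in it was not tested.

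**Figure D1:**
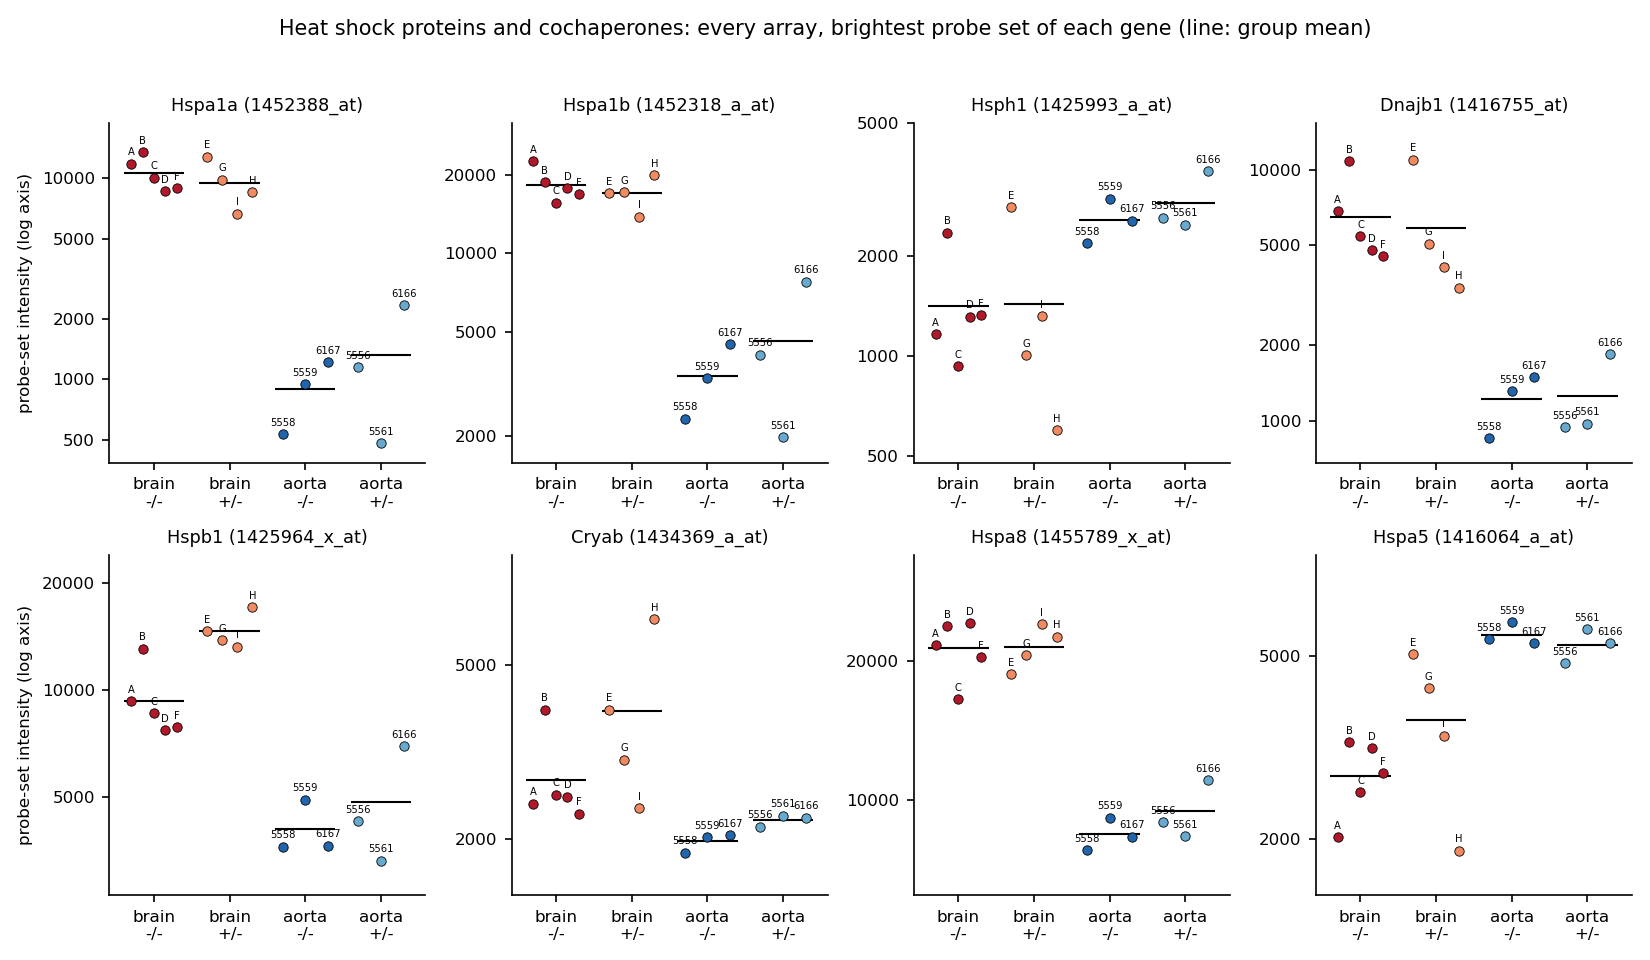
Probe-set intensity (log axis) of the brightest probe set of each of the 8 genes on every array, by group, with array names beside the points and a line at the arithmetic mean of each group. All brain arrays lie above all aorta arrays for Hspa1a, Hspa1b, Dnajb1, Hspb1, Cryab and Hspa8. For Hspa5 the brain arrays lie below the aorta arrays except array E, and for Hsph1 except arrays B and E.

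Hspa1a was measured by 1 probe set, 1452388_at. It read 11785, 13416, 10038, 8598 and 8922 in -/- brain cells (A, B, C, D, F), against 534, 945 and 1219 in -/- aorta (5558, 5559, 6167). It read 12790, 9802, 6657 and 8486 in +/- brain cells (E, G, I, H), against 1147, 482 and 2346 in +/- aorta (5556, 5561, 6166). Every brain array was above every aorta array, and aorta array 6166 was the highest of the 6 aorta arrays. Hspa1a rose 12.0-fold in brain cells over aorta in -/- mice (log2 difference 3.59, SE 0.23, adjusted p = 1.59e-08) and 8.28-fold in +/- mice (log2 3.05, SE 0.42, adjusted p = 0.00014). This was the highest fold of the 8 genes in both genotypes at the brightest probe set of each gene.

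Hspa1b was measured by 3 probe sets, which could also bind transcripts of the near-identical copy Hspa1a, so these 2 genes cannot be told apart with certainty here. At 1452318_a_at it read 22615, 18719, 15676, 17814 and 16884 in -/- brain cells, against 2325, 3327 and 4483 in -/- aorta. It read 16983, 17151, 13845 and 19970.2 in +/- brain cells, against 4087, 1971 and 7796 in +/- aorta. The brain arrays again lay above all aorta arrays, and within +/- aorta 6166 was the highest and 5561 the lowest. Hspa1b rose 5.56-fold in -/- mice (log2 2.47, SE 0.19, adjusted p = 8.4e-08) and 4.22-fold in +/- mice (log2 2.08, SE 0.37, adjusted p = 0.00072). The probe sets 1427127_x_at and 1427126_at gave log2 differences of 2.81 and 2.67 in -/- mice and of 2.21 and 1.90 in +/- mice, and all passed the test.

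Dnajb1, the J-domain partner of these HSP70s, was measured by 2 probe sets. At 1416755_at it read 6853, 10833, 5450.3, 4778 and 4532 in -/- brain cells, against 853, 1313 and 1494 in -/- aorta. It read 10980 (E), 5074 (G), 4095 (I) and 3398 (H) in +/- brain cells, against 947, 977 and 1842 in +/- aorta. No brain array overlapped the aorta arrays, and B and E were the highest arrays of their own groups. Dnajb1 rose 5.12-fold in -/- mice (log2 2.36, SE 0.26, adjusted p = 3.09e-06) and 4.37-fold in +/- mice (log2 2.13, SE 0.37, adjusted p = 0.00069). The dimmer 1416756_at, at 203 to 572 in -/- and 264 to 915 in +/- brain cells against 133 to 221 in -/- and 168 to 245 in +/- aorta, gave smaller differences. They were 0.70 (adjusted p = 0.041) in -/- mice and 1.08 (adjusted p = 0.0207) in +/- mice, and the -/- call was lost without array 5558 (adjusted p = 0.19), 6167 (0.0688), B (0.0613) or C (0.0802), and the +/- call without 5556 (0.0559) or 5561 (0.0804).

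Hsph1, the nucleotide exchange factor, differed the other way. At 1425993_a_at it read 1161, 2344, 930.3, 1309 and 1324 in -/- brain cells, against 2183, 2963 and 2549 in -/- aorta. It read 2798 (E), 1001 (G), 1313 (I) and 596 (H) in +/- brain cells, against 2602, 2475 and 3579 in +/- aorta. B in -/- and E in +/- brain cells reached into the aorta range, and the other brain arrays stayed below it. Hsph1 fell in brain cells by 0.91 on the log2 scale in -/- mice (SE 0.23, adjusted p = 0.00352) and by 1.21 in +/- mice (SE 0.40, adjusted p = 0.0266). The +/- call was lost without array G (adjusted p = 0.0701), 5556 (0.0528), 5561 (0.0505) or 6166 (0.096). The dim 1423566_a_at read 21.1 to 56.8 in -/- and 30.9 to 88.5 in +/- brain cells. In aorta it read 437 to 624 in -/- and 428 to 746 in +/- samples, with no overlap and log2 differences of -3.25 and -3.17. On the brain arrays alone this set was below the level tested. It was tested between tissues because of its aorta values, so its lack of overlap is no separate support.

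Of the small heat shock proteins, Hspb1 was higher in brain cells at both of its probe sets. At 1425964_x_at it read 9281, 13064, 8610.3, 7683 and 7842 in -/- brain cells, against 3613, 4897 and 3632 in -/- aorta. It read 14638, 13804, 13233 and 17131 in +/- brain cells, against 4271, 3298 and 6927 in +/- aorta. The lowest brain array, D, was above the highest aorta array, 6166. Hspb1 rose 2.27-fold in -/- mice (log2 1.18, SE 0.18, adjusted p = 5.27e-05) and 3.17-fold in +/- mice (log2 1.66, SE 0.24, adjusted p = 0.00017), and 1422943_a_at gave log2 1.22 and 1.47.

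Cryab, which encodes alpha B-crystallin, split by probe set. The bright 1434369_a_at read 2408, 3956, 2526, 2497 and 2283 in -/- brain cells, against 1859, 2020.1 and 2042 in -/- aorta. It read 3951, 3039, 2347 and 6377 in +/- brain cells, against 2133, 2260.2 and 2237 in +/- aorta. Its brain arrays lay just above its aorta arrays, with a log2 difference of 0.44 in -/- mice (SE 0.17, adjusted p = 0.0336) and 0.73 in +/- mice (SE 0.28, adjusted p = 0.0504). The -/- call was lost without any one of the 3 aorta arrays, at an adjusted p of 0.115 without 5558, 0.0721 without 5559 and 0.0659 without 6167. The +/- difference passed without brain array I (adjusted p = 0.0108). The dim 1416455_a_at read 54.8 to 81.0 in -/- and 113 to 147 in +/- brain cells, against 477 to 600 in -/- and 521 to 577 in +/- aorta. There Cryab was lower in brain cells, by 2.77 on the log2 scale in -/- mice (adjusted p = 6.85e-09) and by 2.00 in +/- mice (adjusted p = 2.66e-06). The dimmest set, 1435837_at, read 9.19 to 47.7 over all 15 arrays and was below the level tested.

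Hspa8 and Hspa5 split in the same way. The brightest Hspa8 probe set, 1455789_x_at, read 16491 to 24100.2 in -/- brain cells (median 21558) and 7811 to 9166 in -/- aorta (median 8348), and 18706 to 23922 in +/- brain cells and 8375 to 11038 in +/- aorta. It rose 2.50-fold in -/- mice (log2 1.32, SE 0.14, adjusted p = 2.11e-06) and 2.27-fold in +/- mice (log2 1.18, SE 0.18, adjusted p = 0.00022), without overlap. After quantile normalization, which gives every array the same distribution, the +/- difference was 0.16 (adjusted p = 0.399). The dimmer 1431182_at also rose, by 2.64 and 2.67 on the log2 scale. In contrast, 1420622_a_at was lower in brain cells in -/- mice (log2 -1.23, adjusted p = 3.36e-05) and in +/- mice (log2 -1.31, adjusted p = 0.00807), at 900.5 to 1436 in -/- and 614 to 1804 in +/- brain cells against 2124 to 3033 in -/- and 2453 to 4409 in +/- aorta. The fourth, 1420623_x_at, was lower in -/- mice (log2 -0.77, adjusted p = 0.000642) and gave -0.46 in +/- mice (adjusted p = 0.265).

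For Hspa5, 1416064_a_at read 2017, 3250.2, 2524, 3158 and 2786 in -/- brain cells, against 5462, 5939 and 5344 in -/- aorta. It read 5051 (E), 4268 (G), 3356 (I) and 1885 (H) in +/- brain cells, against 4832, 5734 and 5346 in +/- aorta. The -/- groups did not overlap, while E reached the +/- aorta range and H lay lowest of the 15 arrays. Hspa5 fell in -/- brain cells by 1.04 on the log2 scale (SE 0.15, adjusted p = 4.93e-05), and the +/- difference was -0.63 (SE 0.29, adjusted p = 0.0888), or -0.81 without array E (adjusted p = 0.0307). Probe set 1427464_s_at was lower by 2.56 in -/- and by 2.46 in +/- mice, and 1447824_x_at was higher by 0.95 in -/- and 0.65 in +/- mice. The +/- call at 1447824_x_at was lost without aorta array 5561 (adjusted p = 0.108) or 6166 (0.0665).

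**Figure D2:**
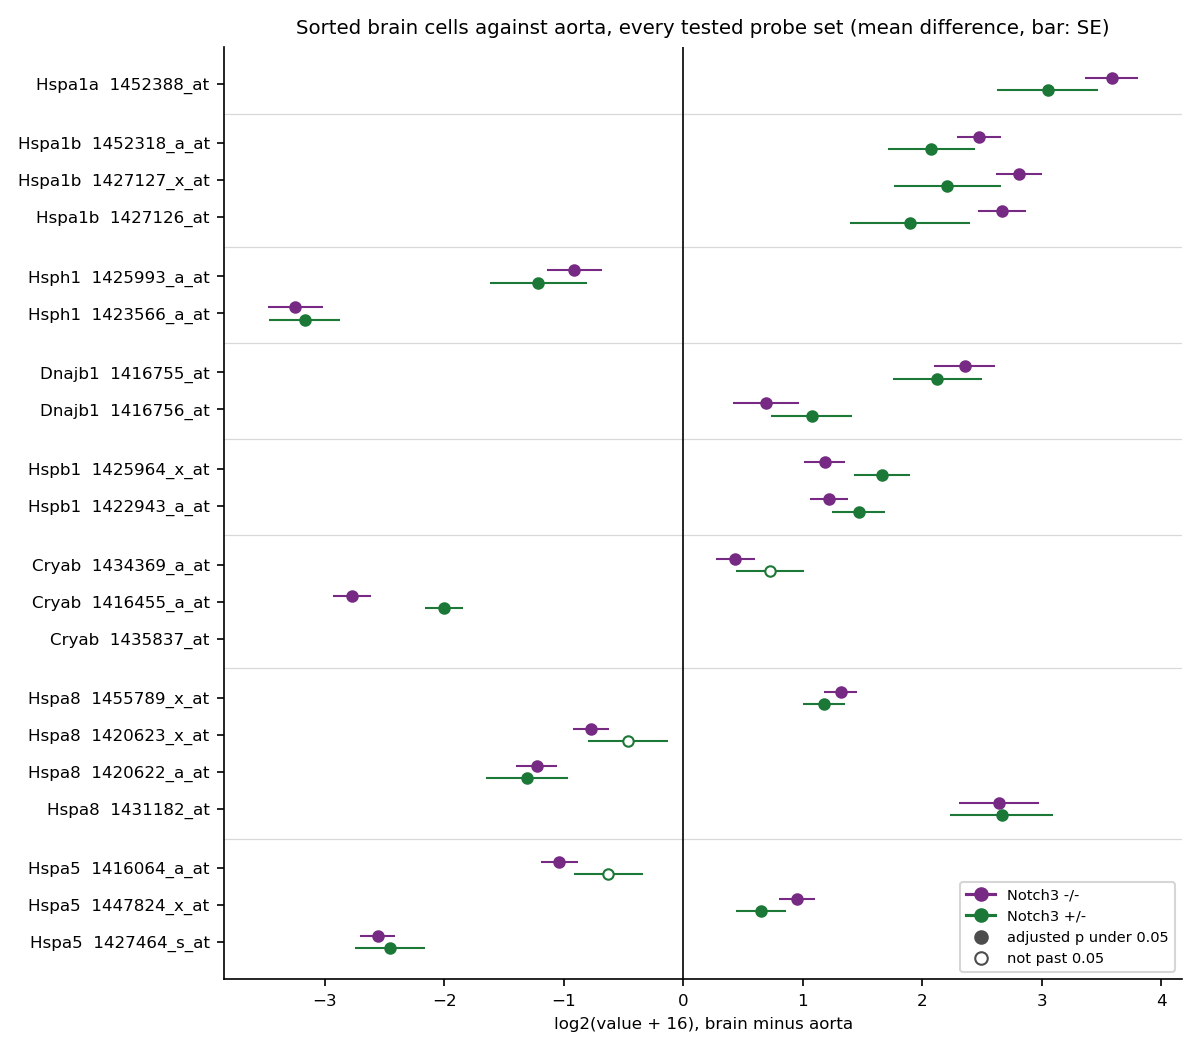
Differences between brain cells and aorta (log2 of value + 16, brain minus aorta, bars of 1 SE) for every tested probe set in Notch3 -/- (purple) and Notch3 +/- (green) mice, filled where the adjusted p was under 0.05. Hspa1a, Hspa1b, Dnajb1 and Hspb1 lie to the right and Hsph1 to the left, while probe sets of Cryab, Hspa8 and Hspa5 lie on both sides, and Cryab 1435837_at was too dim to test.

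Of the 7 genes with at least 2 probe sets tested, 3 (Cryab, Hspa8 and Hspa5) had probe sets called in opposite directions in -/- mice, against 19.5% of 4766 such genes on the array. In +/- mice, 2 (Hspa8 and Hspa5) did, against 11% of 4752. For these 3 genes no single direction between brain cells and aorta can be given.

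The Notch3 genotypes were then compared within each tissue, which is the question the series' design states for brain. In brain cells, 0 of the 18 member probe sets tested passed an adjusted p of 0.05 in limma, and 0.142% of all probe sets did. At an unadjusted p under 0.05 there were 3, against 9.39% of all. The same 3 were those whose brain groups did not overlap, all lower in -/- cells, against 1.85% of all probe sets lower without overlap. They were both Hspb1 sets and 1 Cryab set.

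Hspb1 at 1425964_x_at was 7683 to 13064 in -/- brain cells (median 8610.3) and 13233 to 17131 in +/- brain cells (median 14221). The 5 -/- arrays all lay below the 4 +/- arrays, with B close to the lowest of them. The log2 difference was -0.68 (SE 0.18, adjusted p = 0.248), and it was -0.50 (SE 0.17, adjusted p = 0.376) at 1422943_a_at, which read 7160 to 11065 in -/- and 11126 to 14683 in +/- cells. Cryab at 1416455_a_at read 55.3, 81.0, 61.5, 60.6 and 54.8 in -/- cells (A, B, C, D, F), against 113, 123, 120 and 147 in +/- cells (E, G, I, H). The groups were well apart, with a log2 difference of -0.85 (SE 0.18, limma adjusted p = 0.0879). This difference passed when all 15 arrays shared 1 estimate of the spread (limma adjusted p = 0.0052). That estimate also takes in the spread of the aorta arrays, and with it 137 of all probe sets were called, against 32 with the brain arrays alone. At the brighter Cryab set, 1434369_a_at, the brain groups overlapped (2283 to 3956 in -/- and 2347 to 6377 in +/- cells), with a log2 difference of -0.45 (SE 0.25, adjusted p = 0.601).

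Smooth muscle markers moved the same way in these arrays. The 7 markers summed to 12496 to 20656 in -/- brain cells, against 25019 to 43876 in +/- brain cells, with no overlap. Myh11, the smooth muscle myosin heavy chain, read 541 to 1502 in -/- and 2437 to 4093 in +/- cells, and Tagln, an actin-binding protein of smooth muscle, 651 to 1481 in -/- and 2557 to 3576 in +/- cells. In aorta the sum was 41250 to 46583 in -/- and 41733 to 45397 in +/- samples, which overlapped. The 7 pericyte markers, which include Notch3 itself, summed to 20071 to 23017 in -/- and 23146 to 41525 in +/- brain cells. These sums did not overlap, but Notch3 alone differed by more than the gap between them. It read 150 to 249 in -/- and 2326 to 2805 in +/- brain cells at its brightest probe set. The lack of overlap therefore cannot be read as a difference in pericyte content. In aorta the pericyte sums were 19700 to 21493 in -/- and 18129 to 20496 in +/- samples, which overlapped. The part of smooth muscle and pericyte content in the Hspb1 and Cryab values was not tested.

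The other members showed no brain genotype difference past the test. Hspa1a (log2 0.18, SE 0.20, adjusted p = 0.821) and Hspa1b at 1452318_a_at (log2 0.11, SE 0.17, adjusted p = 0.875) overlapped almost fully between genotypes. Hspa1b at 1427126_at read 8445 to 12767 in -/- and 5544 to 12552 in +/- cells, with a log2 difference of 0.44 (SE 0.23, adjusted p = 0.572). Dnajb1 gave log2 0.22 (SE 0.32) at 1416755_at and -0.54 (SE 0.33) at 1416756_at, and Hsph1 gave 0.14 (SE 0.35). The 3 dimmer Hspa8 sets gave 0.03, -0.32 and -0.53, the bright Hspa8 set -0.02, and the Hspa5 sets -0.33, -0.12 and 0.19, none past the test.

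In aorta, 0 of the 19 member probe sets tested passed, as did 0 of all probe sets (0% in limma). At an unadjusted p under 0.05 there was 1 member probe set, against 4.35% of all probe sets. This was Cryab 1434369_a_at, which read 1859, 2020.1 and 2042 in -/- aorta, against 2133, 2260.2 and 2237 in +/- aorta. It was the 1 member probe set whose groups did not overlap (log2 -0.16, SE 0.07, limma adjusted p = 0.999), and 4.75% of all probe sets were lower without overlap. The aorta differences ran from -0.40 (Hspa8 1420622_a_at) to 0.08 (Hspa5 1416064_a_at), and for the 4 probe sets of Hspa1a and Hspa1b from -0.35 to -0.28, with SEs of 0.43 to 0.55. Some aorta array names begin with 55 and others with 61, and the labels do not explain these numbers. With the start of the name as a block, again 0 member probe sets passed. Within the 4 arrays that begin with 55 (2 per genotype), the difference turned positive for 8 member probe sets, among them Hspb1 1425964_x_at (log2 0.16) and Hspa1b 1427126_at (log2 0.18), and those that begin with 61 are 1 array per genotype.

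The difference between tissues in the genotype effect passed for 0 of 19 member probe sets in limma (0.0178% of all probe sets). At an unadjusted p under 0.05 there was 1, Cryab 1416455_a_at, against 4.76% of all probe sets. Its genotype effect was more negative in brain than in aorta by 0.77 on the log2 scale (SE 0.21, adjusted p = 0.592).

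**Figure D3:**
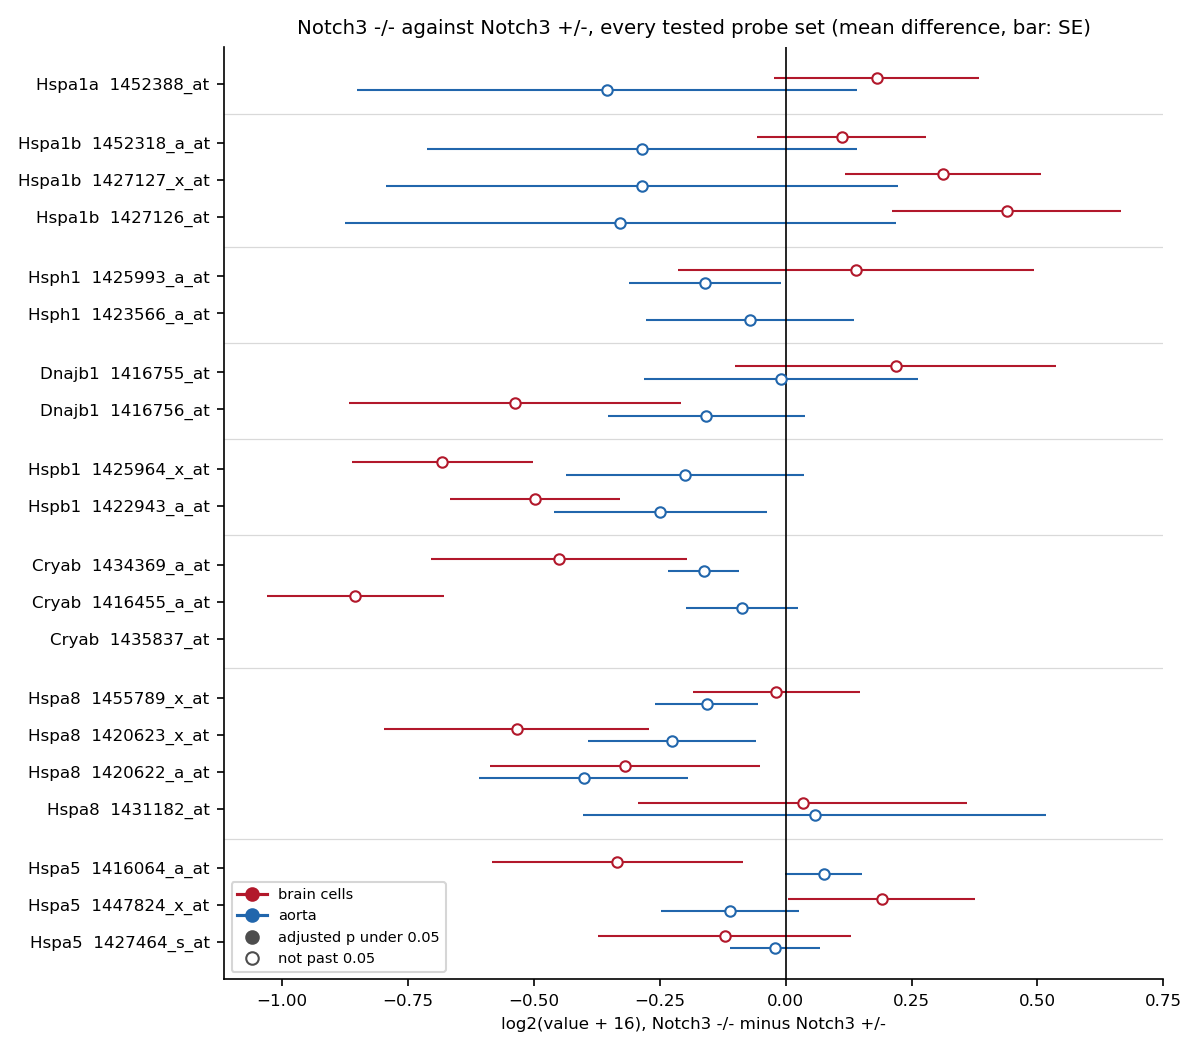
Differences between genotypes (log2 of value + 16, Notch3 -/- minus Notch3 +/-, bars of 1 SE) for every tested probe set in brain cells (red) and aorta (blue). All points are open, since no adjusted p was under 0.05, and the brain values of Cryab 1416455_a_at and both Hspb1 sets lie farthest from 0 relative to their bars.

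At the brightest probe set of each gene, both brain group means stood above both aorta means for Hspa1a, Hspa1b, Dnajb1, Hspb1, Cryab and Hspa8, and below them for Hsph1 and Hspa5. Some other probe sets of Cryab, Hspa8 and Hspa5 gave the opposite order, and the tissue difference in +/- mice did not pass at the brightest set of Cryab or Hspa5. Within a tissue the neighbouring genotypes did not differ past the test for any of the 8 genes.

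Single arrays varied together across several of the genes. Array 6166 was the highest of the 6 aorta arrays at 13 of the 20 member probe sets, and at 14.8% of all probe sets tested. Array E was the highest of the 9 brain arrays at 7 of the 20 (11.8% of all), and array H the lowest at 9 (21.5% of all) and the highest at 4 (18% of all). H, whose actin ratio of 70.1 was the highest of the 15 arrays, was lowest at Hsph1, Dnajb1 and Hspa5 and highest at Hspb1 and Cryab, at the brightest set of each. Whether these arrays were handled differently was not tested.

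**Figure D4:**
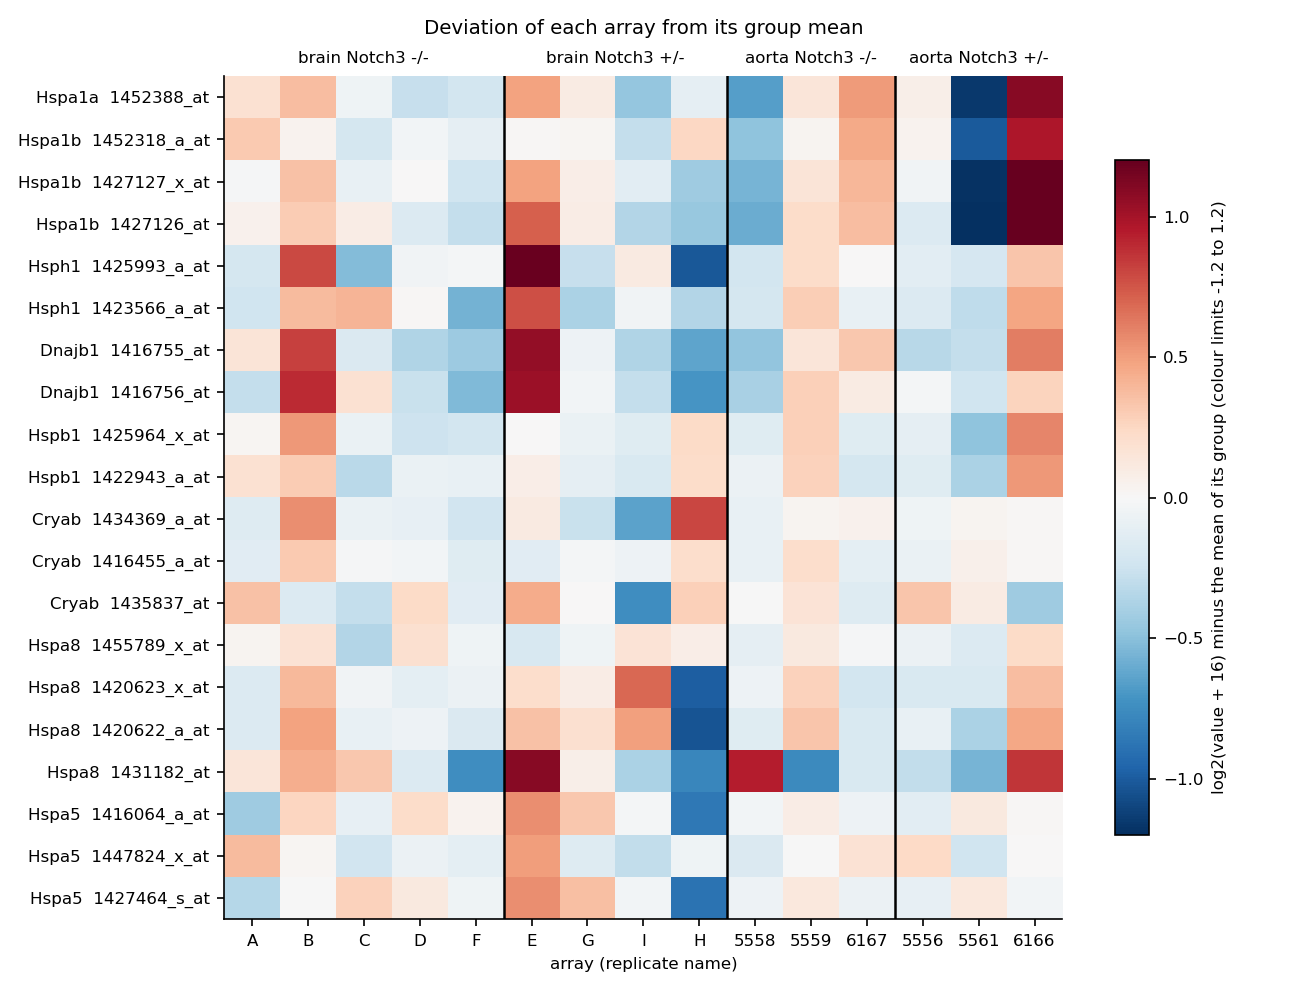
Deviation of each array from the mean of its group (log2 of value + 16, red above, blue below, colours limited at -1.2 and 1.2) for the 20 probe sets in rows and the 15 arrays in columns. Array 6166 is red in most rows of the aorta block, E is red and H blue for Hsph1, Dnajb1 and Hspa5, and H is red for Hspb1 and Cryab.

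Each gene was also set against Hspa1b across the arrays of a tissue, which gave 14 relations over both tissues. In aorta (n = 6 arrays) Hspa1a followed Hspa1b closely, with Pearson r = 0.996 (exact permutation p = 0.0014, adjusted p = 0.0194) and Spearman rho = 1.0 (adjusted p = 0.0389). Without the 2 arrays farthest from the Hspa1b median, r was 0.989. The Hspa1b probe sets could also bind Hspa1a transcripts, so in either tissue this relation cannot be read as 2 separate genes varying together. The 6 aorta arrays gave r = 0.826 for Dnajb1, 0.824 for Hspb1, 0.824 for Hspa8 and 0.803 for Hsph1, each with an adjusted p = 0.171 by exact permutation. Their Spearman rho values were lower, at 0.714, 0.771, 0.486 and 0.714, and none passed. Leaving out the 2 arrays outermost in Hspa1b leaves 4 arrays over a narrower range. The 4 r values were then 0.642, 0.146, 0.55 and 0.541, and Cryab gave 0.894, against 0.315 over all 6. In brain cells (n = 9 arrays) none passed, and Hspa1a gave r = 0.519 (exact permutation, adjusted p = 0.312; rho 0.283) and -0.09 without the 2 outermost arrays. The same trimming, to 7 arrays, gave 0.809 for Hspa8, 0.779 for Cryab and 0.572 for Hspb1, against 0.192, 0.347 and 0.0054 over all 9. After quantile normalization Hspa1a passed in brain cells (r = 0.863, exact permutation, adjusted p = 0.0183), and r changed sign for Hsph1, Hspb1, Cryab and Hspa5. The brain arrays fall into 2 genotypes, whose Hspa1b difference did not pass the test.

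Deviations from the group means over all 15 arrays were used to find the genes whose pattern was most like each member's, as a description. The points share the arrays and their scaling. Hspa1a and Hspa1b, whose probe sets may share transcripts, had r = 0.91 with each other. Both were most like Slf2 (0.92 for each), Bcl2l1 (0.91 and 0.86) and Acadl (0.87 for each). Hsph1 was most like Prkaa2 (0.93), Ahsa2 (0.91) and Cacybp (0.91), and Dnajb1 like Cldn2 (0.90), Dnaja4 (0.89) and Adm (0.88). Hsph1 and Dnajb1 had r = 0.83 with each other. Hspb1 was most like Cyb561a3 (0.90), Cfl2 (0.85) and Slf2 (0.84), and Cryab like Zfp651 (0.96), Pak4 (0.96) and Scfd2 (0.95). Hspa5 was most like Tax1bp1 (0.95), Slc25a3 (0.94) and Gfpt1 (0.93), and had r = 0.76 with Hsph1. Hspa8 had no likeness above 0.79, with Abhd8 (0.79), Slc38a3 (0.78) and Raver1 (0.78) nearest.

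The rest of the chaperone network was described by 7 lists at the brightest probe set of each gene. The counts below stand beside 33.6% of all probe sets higher and 28.9% lower in -/- brain cells, and 26.5% higher and 25.2% lower in +/- brain cells. In the list of other genes of the inducible cytosolic response (13 tested), 7 were lower and 1 higher in -/- brain cells, and 6 were lower and 0 higher in +/- brain cells, with medians of -0.60 and -0.49. The 1 higher gene, named after its value was seen, was Chordc1, an HSP90 cochaperone (log2 0.69, adjusted p = 0.0281). The list had 0 higher genes without the filter or with all 15 arrays in 1 fit, 2 with array weights, 0 without array 5558 and 2 without array F. The medians of all probe sets were 0.11 and 0.07. In -/- mice Serpinh1, a collagen chaperone, averaged 439 ± 85.4 in brain cells and 1942 ± 317 in aorta (SD, n = 5 and 3; log2 -2.11, adjusted p = 1.32e-07). In -/- brain cells the log2 difference was -1.83 for Dnajb4, a J-domain protein, -0.96 for Ahsa1, which activates HSP90, and -0.90 for Bag3, a cochaperone that releases HSP70 clients. In +/- brain cells it was -1.67 for Serpinh1, -2.20 for Dnajb4, -1.15 for Bag3 and -1.30 for Hspa4, an HSP110 relative, and all of these passed.

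Among other HSP70s and their regulators (15 tested), 4 were higher and 8 lower in -/- brain cells, and 3 higher and 6 lower in +/- brain cells. Hspa12b, a distant HSP70 of endothelium, was higher by 2.51 (limma adjusted p = 1.93e-08) in -/- and 2.43 in +/- mice. Endothelial markers were higher in the same arrays, and the part of endothelial content in this difference was not tested. Stub1, the ubiquitin ligase that works with HSP70, fell by 1.92 in -/- and 1.31 in +/- brain cells, and Bag1, a nucleotide exchange factor, by 1.14 and 0.87. Of the J-domain cochaperones (15 tested), 5 were higher and 7 lower in -/-, and 4 higher and 7 lower in +/- brain cells, so the share higher was near that of all probe sets. Dnajc5, the synaptic vesicle protein, rose by 1.22 in -/- brain cells, and Dnaja2, Dnajb5 and Dnajb6 fell by 1.34, 1.88 and 1.42.

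Of the 8 other small heat shock proteins measured, 5 were bright enough to test. Of these, 0 were higher and 4 lower in -/- mice, and 0 higher and 5 lower in +/- mice, with medians of -1.92 and -1.88. Hspb7 averaged 92.4 ± 18.3 in -/- brain cells and 1715 ± 494 in -/- aorta (SD, n = 5 and 3; log2 -3.98, adjusted p = 1.33e-09). Hspb6, which is abundant in smooth muscle, fell by 2.93, Hspb2 by 1.92 and Hspb8 by 1.69 in -/- brain cells. The sum of smooth muscle markers was also lower in -/- brain cells than in -/- aorta, as given above. In +/- mice the sums of brain cells (25019 to 43876) and aorta (41733 to 45397) overlapped. The part of smooth muscle content was not tested.

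Of the HSP90 cochaperones (7 tested), 1 was higher and 4 lower in -/-, and 1 higher and 2 lower in +/- brain cells, with Cdc37, which brings kinases to HSP90, lower by 1.41 and 1.08. Of the chaperonins and prefoldins (15 tested), 3 were higher and 9 lower in -/-, and 2 higher and 9 lower in +/- brain cells, with medians of -1.15 and -1.06. Cct8, a subunit of the cytosolic chaperonin, fell by 2.84 in -/- and 2.60 in +/- brain cells. Hspe1, the mitochondrial cochaperonin, fell by 2.10, and the prefoldins Pfdn5 and Pfdn4 by 1.70 and 1.44. Of the genes of the endoplasmic reticulum and unfolded protein response (23 tested), 5 were higher and 11 lower in -/-, and 4 higher and 13 lower in +/- brain cells. In -/- brain cells the log2 difference was -3.11 for Pdia3 and -2.06 for Pdia4, which form disulfide bonds, -1.99 for Hsp90b1, the HSP90 of this compartment, and -1.73 for Dnajc3, a partner of Hspa5. Hspa5 itself fell by 1.04 there at its brightest probe set and by 2.56 at 1427464_s_at, but rose by 0.95 at 1447824_x_at.

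Immediate early genes, which are transcribed soon after many stimuli, tissue dissociation among them, were listed beside them. In -/- mice 18 of 20 were higher and 1 lower in brain cells, and in +/- mice 16 of 19 were higher and 1 lower, with medians of 1.78 and 1.96. In -/- mice Gadd45b rose by 4.74, Klf4 by 2.96 and Ier2 by 2.26, and Klf6 was the 1 that fell, by 2.27. In +/- mice Gadd45b rose by 4.91, Fos by 4.09, Nr4a1 by 3.31 and Ier2 by 3.21. Their part in the levels of the heat shock genes was not tested.

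Between genotypes, 0 genes of these lists passed in brain cells, in aorta or in the difference between tissues (limma). At an unadjusted p under 0.05 there were 10 of 93 genes tested over the 7 chaperone lists in brain cells (10.8%), near the 9.39% of all probe sets. The smallest p in 4 of the lists belonged to Serpinh1 (log2 -0.57, limma adjusted p = 0.324), Hspa2 (-0.64, 0.324), Ppp5c (-0.79, 0.291) and Ddit3 (-0.63, 0.377), each lower in -/- brain cells. In the J-domain, small heat shock protein and chaperonin lists the lowest limma adjusted p was 0.615, 0.528 and 0.673. Each of the 7 lists held genes with higher and genes with lower values in -/- brain cells. Of the 20 immediate early genes tested, 5 reached an unadjusted p under 0.05 in brain cells, against 9.39% of all probe sets, and 0 passed, with a median of -0.20.

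**Figure D5:**
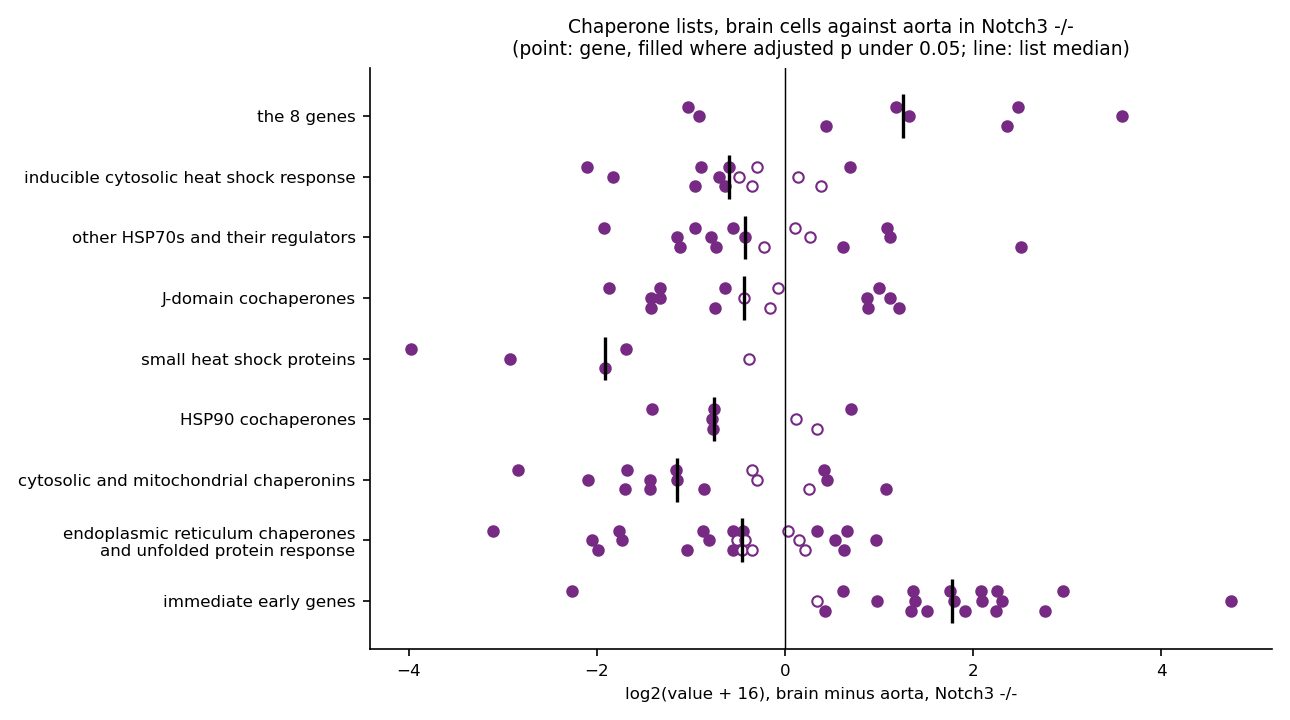
Differences between brain cells and aorta in Notch3 -/- mice (log2 of value + 16, brain minus aorta) at the brightest probe set of each gene, by list, filled where the adjusted p was under 0.05, with a line at the median of each list. Of the 8 genes, 6 lie to the right of 0, the medians of the 7 other chaperone lists lie to the left, from -1.92 for small heat shock proteins to -0.43, and that of the immediate early genes lies at 1.78.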

How the data were processed

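Expression was measured on Affymetrix mouse arrays, 15 µg of cRNA each, in 15 samples of 4 tissue-by-genotype groups. The deposited values are linear intensities per probe set, which the authors scaled to a target intensity of 150, per the series' design text. The sources used here name no probe summary or background method and no detection calls. The authors analysed their data in Rosetta Resolver, per the design text. Here log2(intensity + 16) was tested with limma 3.58.1 (R 4.3.3; lmFit, eBayes with trend) on the 22519 probe sets at or above the median mean level, of 45037 without 64 controls. Fold changes are on this scale, which understates changes of dim probe sets. P-values were adjusted over all probe sets tested (Benjamini-Hochberg, 5%), and the fit was tested on simulated data. Of 45101 probe sets, 34958 carried 1 symbol, 932 several and 9211 none, and symbols were updated through RefSeq where they matched (34754). Genes were described at their brightest probe set, with up to 4 named per list and comparison by smallest p and 3 per member by likeness. The members and lists were chosen with earlier results of these data known. The number of arrays limits the precision. Alternatives were other pseudocounts, no filter, quantile normalization, no trend, array weights, each array left out, all 15 arrays in 1 fit and the first digits of the aorta array names (55 or 61) as a block.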

Additional observations from a re-analysis of the deposited data

Results flagged for a closer look

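Of 40 tests for a single array far from its group (Dixon's test on probe sets in the 2 brain groups), 4 passed, and chance passes about 1 in 20. All 4 were Notch3 -/- brain array B, the highest of its group. Cryab read 3955.9 there at 1434369_a_at (gap over range 0.816) and 81.0 at 1416455_a_at (0.716). Hspa8 read 2513.7 at 1420623_x_at (gap over range 0.78 on the same log2 scale) and 1435.6 at 1420622_a_at (0.819). No difference between tissues in the genotype effect passed for these genes.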

How the results depend on the processing

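No paired analysis was possible because replicate names are not shared between groups. The number of member probe sets called between brain genotypes was 0, and 1 with all 15 arrays in 1 fit. Over all probe sets it was 32, and 50 with a pseudocount of 64, 18 without the filter, 52 with array weights, 137 with all 15 arrays, 66 with the actin ratio as a covariate and 10 to 38 with 1 array left out. In aorta it was 0, 2 with all 15 arrays and 0 to 7 with 1 left out, and for the difference between tissues 4, 13 with array weights and 0 to 7 with 1 left out. The actin covariate and the aorta arrays whose names begin with 55 alone were chosen after seeing the data. Leaving out 1 array left 17 to 19 member calls between tissues in -/- and 13 to 17 in +/- mice. The chaperone-list genes higher in +/- brain cells numbered 9 without the filter and 9 to 15 with 1 array left out (9 without 5556, 5561 or 6166).

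No brain genotype difference that changed sign had passed the test. With array weights the log2 value was -0.0151 for Hsph1 1425993_a_at and -0.1403 for Hspa8 1431182_at, and with quantile normalization 0.0481 for Hspa8 1455789_x_at. With the actin covariate it was 0.0247 for Hspa8 1455789_x_at, 0.0089 for 1420622_a_at and 0.0436 for Hspa5 1427464_s_at. With 1 array left out it was -0.4176 to 0.0634 for Hspa5 1427464_s_at, -0.2269 to 0.3974 for Hspa8 1431182_at, -0.0818 to 0.069 for Hspa8 1455789_x_at and -0.1983 to 0.5357 for Hsph1 1425993_a_at.

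In aorta, those arrays alone gave 0.131 and 0.1768 for Hspa1b (1427127_x_at, 1427126_at), 0.003 and 0.2089 for Hsph1 (1425993_a_at, 1423566_a_at), 0.136 for Dnajb1 1416755_at, 0.1638 and 0.1156 for Hspb1 (1425964_x_at, 1422943_a_at) and 0.0689 for Hspa8 1420623_x_at. With 1 array left out the aorta values were -0.9329 to 0.1897 for Hspa1a, -0.9372 to 0.3626, -0.8787 to 0.3296 and -0.7886 to 0.1991 for Hspa1b, -0.2694 to 0.004 and -0.2237 to 0.1657 for Hsph1, and -0.1745 to 0.2996 and -0.3011 to 0.0359 for Dnajb1. They were -0.44 to 0.0935 and -0.4391 to 0.0123 for Hspb1, -0.4133 to 0.4855 for Hspa8 1431182_at, and -0.0871 to 0.0427 and -0.2291 to 0.0061 for Hspa5.

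Quantile normalization moved the brain correlations with Hspa1b to 0.8627 for Hspa1a (exact permutation, adjusted p = 0.0183), 0.3437 for Hsph1, -0.1821 for Hspb1, -0.3295 for Cryab and 0.1157 for Hspa5. Between tissues in -/- mice, the calls of Dnajb1 1416756_at and Cryab 1434369_a_at were lost without the filter (adjusted p = 0.0755 and 0.0631), without the trend (0.0548 and 0.0578) and with all 15 arrays (0.0773 and 0.119). In +/- mice Hsph1 1425993_a_at was lost without the filter (0.0509). There Cryab 1434369_a_at passed with a pseudocount of 64 (0.0489), array weights (0.0132) and all 15 arrays (0.0183), and Hspa5 1416064_a_at with quantile normalization (0.0179) and all 15 arrays (0.0357). The causes were not tested.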
